A study of Mus musculus with 72 samples.

Results

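The comparison described here is that of mice on the control diet (Ctrl) kept in a light-dark cycle (LD) with mice on the same diet kept in constant darkness (DD), at the night times 12, 16 and 20 h, in the suprachiasmatic nucleus (SCN) of the hypothalamus. It holds 18 of the 72 RNA-seq libraries of the study, 9 Ctrl LD and 9 Ctrl DD, with 3 libraries at each time on each side. The whole study measured the SCN of mice on a Ctrl or a tryptophan-depleted diet, in LD or DD, at 6 times of day. All animals of these 18 libraries were male C57BL/6 mice aged 8 weeks, without a transgene or a drug, and all ate the Ctrl diet, matched in nitrogen to the depleted diet, for 2 weeks after 1 week on their light schedule. Ctrl LD mice had 12 h of light and 12 h of darkness. Thus 12 h is the time of lights-off, and 16 and 20 h fell in the dark. Ctrl DD mice had no light at any time, so in DD these hours are subjective night. With 3 times on each side, a difference in level and a shift in phase cannot be told apart. The labels give 3 replicates for each group and time and do not say whether each was 1 animal or a pool, so the p-values below measure the spread between these libraries, which may in part be technical.

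The libraries were assigned to groups by values, through a supplementary table of the study, because the column names in the deposited tables are shifted against that table. Each of the 18 columns used held the same values as 1 library of the supplementary table for 100% of the genes compared, with between 1915 and 1925 genes for each LD column and between 127 and 134 for each DD column. The choice decides the result. With the columns taken by their deposited names, 1 gene instead of 9678 passed the test of LD against DD, and which of both orders is right was not tested. Every LD or DD below means the side given by that supplementary table.

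The SCN is the central circadian pacemaker of mammals. Its neurons are almost all GABAergic, receive light input from the retina, and carry a transcriptional loop in which CLOCK and BMAL1 (gene Arntl) activate the Per and Cry genes through E-box elements, and PER and CRY proteins repress that activation. In a light-dark cycle light sets the phase of this loop each day, and in constant darkness it runs freely. Neuropeptides such as VIP, AVP, GRP, neuromedin S and prokineticin 2 carry the signal between SCN cells and to other hypothalamic nuclei.

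Both sides differed in their total before any gene was considered. The deposited unit is FPKM, the number of fragments divided by transcript length and by the library's mapped fragments, and the sum over all genes was 435414 to 479420 in the 9 Ctrl LD libraries and 319668 to 352980 in the 9 Ctrl DD libraries, without overlap. The means were 464525 ± 15261 and 334635 ± 12885 (SD, n = 9 each), a ratio of 1.39 (two-sided exact permutation test, p = 4.11e-05, the smallest that 9 against 9 libraries can give, and 0.000123 after Benjamini-Hochberg adjustment over 6 measures). The 18 libraries taken on the same 2 sides from 0 to 8 h lay at 403066 to 483096 in LD and 317417 to 334538 in DD, again without overlap, so the light schedule and this range of totals cannot be told apart. The difference did not rest on a few genes, but it was not spread evenly. The 10 genes with the largest part in it made up 7.97% of it. Of 10435 genes with a higher mean in LD, 189 together made up 50%. The ratio was 1.37 without those 10 genes.

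Estimated sequencing depth overlapped between the sides. FPKM values of low genes come in steps of 1 fragment, and these steps gave an estimated 30.8 to 44.7 M fragments (M, mega) in the LD libraries and 31.7 to 40.3 M in the DD libraries (two-sided exact permutation test, p = 0.383). Of the low values, 64.8% to 71.4% came out whole within 0.04 of a fragment, against 8.0% for evenly spread values, so these depths are estimates and no count test was run. The number of genes listed above 0 was lower in LD, 18071 to 18359 against 18260 to 18748 in DD. The same permutation test gave p = 0.000535, and 0.000802 after Benjamini-Hochberg adjustment over 6 measures.

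The difference varied with transcript length. The median LD minus DD difference, on the log2 scale of scaled FPKM, was 0.42 over 142 genes whose longest annotated transcript had under 500 bases, 0.53 over 616 genes of 500 to 1000 bases, 0.37 over 2281 genes of 1000 to 2000 bases, 0.10 over 5604 genes of 2000 to 4000 bases and −0.19 over 4432 genes of 4000 to 8000 bases. In the shortest class 26.1% were called higher in LD, against 65.7% in the next. Over 818 genes above 8000 bases it was −0.63, and 81.5% of these were called lower in LD. Across 13893 genes with a known length Spearman's rho was −0.51, a description only, since genes are not replicates. Within each library, the median deviation of long genes minus that of short genes lay below 0 in all 9 LD libraries and above 0 in all 9 DD libraries. The cause of this gradient was not tested. The counts of a fit with the length trend removed, chosen after seeing the data, therefore stand beside those of each process list below. Of all 13893 genes in that fit, 4243 were called higher and 4058 lower in LD, and its list counts are read against these.

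**Figure D1:**
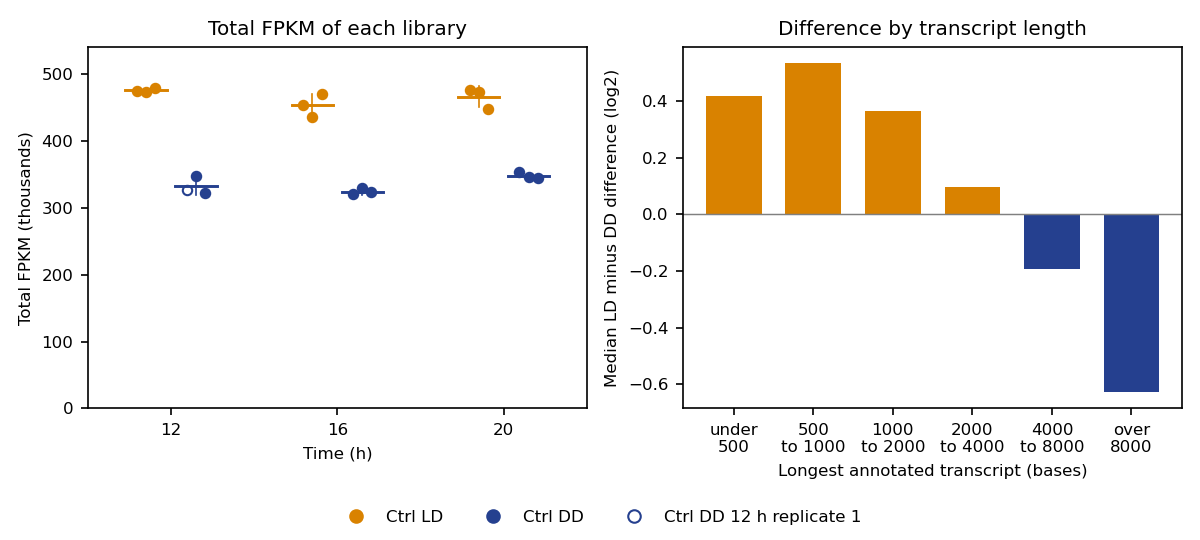
Left, total FPKM in units of 1000 (vertical axis) of each library at 12, 16 and 20 h (horizontal axis), with the mean as a horizontal line and the SD as a vertical line over 3 libraries. Right, median LD minus DD difference (log2, vertical axis) of genes grouped by the bases of their longest annotated transcript (horizontal axis). The 9 LD totals lie between 435414 and 479420 and the 9 DD totals between 319668 and 352980, and the median difference falls from 0.53 at 500 to 1000 bases to −0.63 above 8000 bases.

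FPKM values were therefore scaled by median-of-ratios factors (0.989 to 1.07 in LD, 0.909 to 1.02 in DD), and all levels below are scaled FPKM unless named otherwise. Of 14455 genes tested with limma on log2(scaled FPKM + 0.5), with time as a factor, 9678 had a Benjamini-Hochberg adjusted p under 0.05 and are called below. This is 67.0% of the genes tested, with 35.0% (5062) higher and 31.9% (4616) lower in LD. Within these, 4481 genes (31.0% of those tested) were called with a difference of at least 0.5 on the log2 scale. The 9 LD and 9 DD values of a gene did not overlap for 31.2% (4511). Because so large a share of all genes was called, a call on its own says little about a gene, and the counts of each group are read against these shares. The split of higher and lower calls depends on the scaling. It was 52.3% higher under the main scaling, 61.0% with FPKM as deposited, 41.0% with upper quartile scaling and 17.9% with each library scaled to the same sum. These scalings moved the median difference of all genes from 0.02 to 0.10, −0.08 and −0.31.

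Taken hour by hour, 49.5% of the genes were called at 12 h (7160), 45.5% at 16 h (6582) and 45.1% at 20 h (6518). The difference itself depended on time for 1 gene, Calr, which is 0.00692% of those tested, and 675 genes had an unadjusted p under 0.05 for this interaction. Leaving out each of the 18 libraries in turn gave 0 to 9 such genes, and with the replicate numbers as a block none passed in limma, with 568 genes at an unadjusted p under 0.05.

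Ctrl DD 12 h replicate 1 stood apart from every other library. Its median Pearson correlation with the other DD libraries, across genes, was 0.901, against 0.971 to 0.988 for the other 17 libraries with their own side. It held 307 scaled FPKM of Slc17a7, the vesicular glutamate transporter of cortical neurons, where the median of the 9 DD libraries was 0.259. It also held 21.2 of Tbr1 and 56.5 of Neurod6, both transcription factors of cortical excitatory neurons, against DD medians of 0.0987 and 0.102. In the same library Avp stood at 20.4 (DD median 365), Six6 at 0.0614 (3.64) and Pomc at 2.38 (156). Each result below was also fitted without it, and 10610 genes were then called (5521 higher, 5089 lower in LD).

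The core clock list held 18 genes, of which 1 was called higher and 9 lower in LD, with a median difference of −0.18 against 0.02 over all genes tested. With each library scaled to the same sum, which moved the median of all genes to −0.31 and called 8448 of them lower, 17 of the list were lower and none higher. Without Ctrl DD 12 h replicate 1 the counts were 1 and 10, and with the length trend removed 3 and 5 (median −0.12). The 3 Period genes, whose proteins repress CLOCK and BMAL1, were all lower in LD. Per3 lay at 3.70, 4.82 and 5.31 (lowest, median and highest of 9) in LD and at 8.64, 12.2 and 14.3 in DD. No LD library reached the lowest DD library. The difference was −1.27 ± 0.08 (log2, SE, adjusted p = 1.32e-09), and it was −1.09, −1.29 and −1.43 at 12, 16 and 20 h.

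Per1 lay at 6.23, 8.60 and 9.73 in LD and at 9.55, 11.2 and 14.3 in DD. The highest LD value passed the lowest DD value, and the difference was −0.43 ± 0.09 (adjusted p = 0.000511). Per2 lay at 2.58, 3.25 and 3.93 in LD and at 3.91, 4.69 and 7.33 in DD, again with a small overlap, and differed by −0.62 ± 0.11 (adjusted p = 0.000126). For both genes the sides were closest at 12 h, where Per1 differed by −0.13 (adjusted p = 0.46) and Per2 by −0.24 (adjusted p = 0.21), and farthest apart at 20 h, where they differed by −0.65 and −0.99. Whether the difference changed with time was tested and did not pass (adjusted p = 0.949 for both, unadjusted p = 0.044 and 0.015). All 3 Period genes stayed called with the length trend removed, at −0.31, −0.35 and −0.99.

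Cry1, which codes for the other repressor of the loop, went the other way. It lay at 6.19, 8.66 and 9.66 in LD and at 4.35, 6.21 and 8.53 in DD, with overlap, and differed by 0.42 ± 0.10 (adjusted p = 0.00145), a call that was lost with each library scaled to the same sum. It was 0.73 higher in LD at 12 h and 0.08 higher at 20 h, where it was not called (adjusted p = 0.69). Whether this difference of Cry1 changed with time was tested and did not pass. Clock, the activator, lay at 4.83, 5.23 and 6.53 in LD and at 8.13, 9.11 and 10.7 in DD without overlap, a difference of −0.71 ± 0.06 (adjusted p = 1.61e-08). Its longest transcript has 9744 bases, and with the length trend removed it differed by −0.11 (adjusted p = 0.0523), so it was no longer called. Arntl, the partner of Clock, differed by −0.29 ± 0.11 (adjusted p = 0.0317) and lay at 4.66 to 8.14 in LD and 6.89 to 12.9 in DD, where the highest value came from the library that stands apart. Rora, which activates Arntl, changed sign with the length trend removed, from −0.37 (adjusted p = 0.00108) to 0.31 (adjusted p = 0.00571), and has a transcript of 10878 bases. Nr1d1, which represses Arntl, differed by no more than its error under the main scaling (adjusted p = 0.99) and was below 0 under same-sum, upper quartile and quantile scaling, with 22.2 to 30.8 in LD and 22.6 to 29.6 in DD.

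Timeless lay at 0.452, 0.5002 and 0.734 in LD and at 0.662, 1.30 and 2.36 in DD, with a difference of −0.72 ± 0.12 (adjusted p = 3.69e-05). The DD libraries were highest at 16 h, where the difference was −1.09, and close to LD at 20 h, where it was −0.28 (adjusted p = 0.16). The dependence of the difference of Timeless on time did not pass its test.

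Of 7 clock output genes 1 was called higher and 2 lower, with a median of 0.01, which was below 0 under upper quartile, same-sum and quantile scaling (−0.11, −0.36 and −0.01). Removing the length trend gave 1 higher and 3 lower (median −0.10). Dbp, a transcription factor under direct E-box control, crossed between the sides. It stood at 37.3, 33.1 and 31.9 in LD at 12 h and at 12.6, 22.3 and 12.0 in DD at 12 h, and by 20 h at 15.8, 15.6 and 16.0 in LD and at 23.9, 26.8 and 18.8 in DD. LD was above DD at 12 h and below it at 20 h, with no overlap at either time. The differences were 1.15 (adjusted p = 0.00022), −0.06 (adjusted p = 0.82) and −0.53 (adjusted p = 0.038) at 12, 16 and 20 h, which cancel in the difference over all 3 times (0.19 ± 0.20, adjusted p = 0.423). The dependence on time had an adjusted p of 0.178 over all genes and an unadjusted p of 6.2e-05. Ciart, a repressor of the clock loop, and Cirbp, a cold-inducible RNA-binding protein, had the same order of differences (0.46, −0.33 and −0.57 for Ciart, 0.83, −0.05 and −0.29 for Cirbp) and adjusted interaction p of 0.489 and 0.325. Both were picked out after their values were seen. Nfil3, a repressor at the same sites as Dbp, was higher in LD by 0.36 ± 0.13 (adjusted p = 0.019) and Bhlhe40 was lower (−0.20 ± 0.05, adjusted p = 0.00334). Tef, a relative of Dbp, lay at 57.3 to 65.6 in LD and at 66.2 to 74.5 in DD without overlap, at a difference of only −0.18 ± 0.04 (adjusted p = 0.000372).

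**Figure D2:**
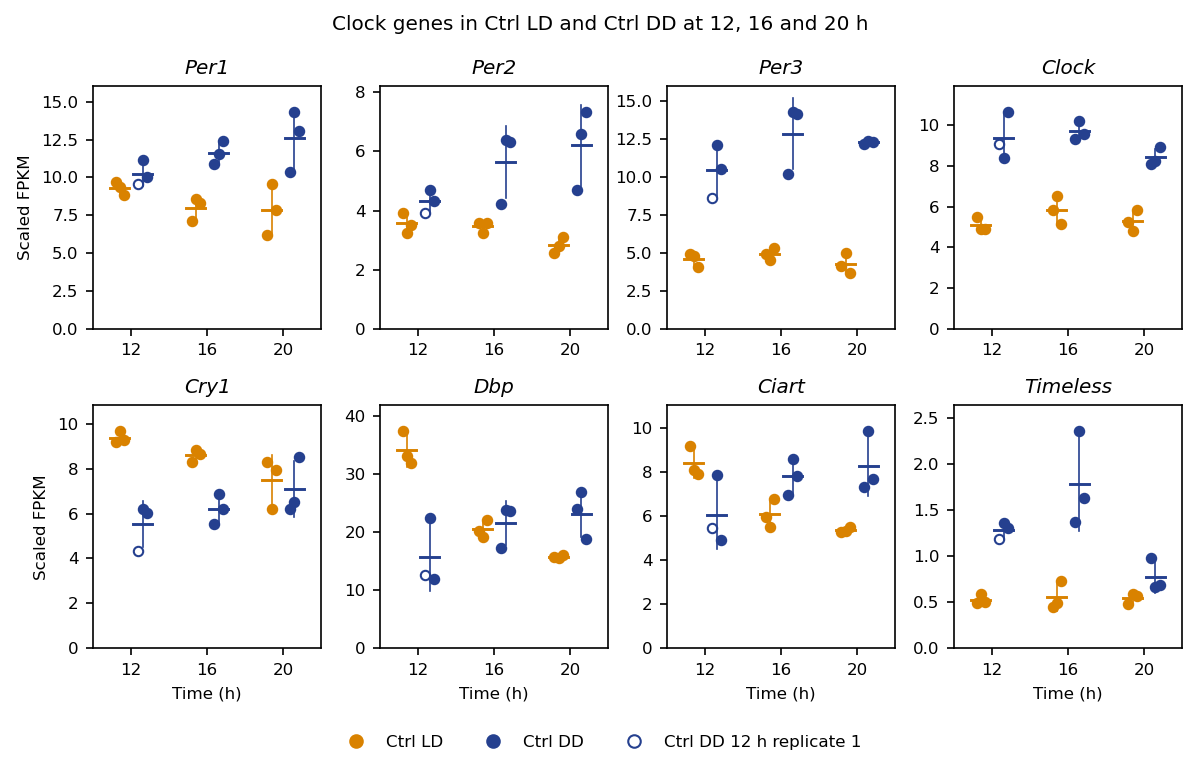
Scaled FPKM (vertical axis, from 0) of 8 clock genes at 12, 16 and 20 h (horizontal axis) in Ctrl LD and Ctrl DD, 3 libraries a time, with the mean as a horizontal line and the SD as a vertical line. Per3 and Clock are separate at all 3 times, Per1 and Per2 lie closest at 12 h, and Dbp falls from 31.9 to 37.3 at 12 h to 15.6 to 16.0 at 20 h in LD while DD lies at 18.8 to 26.8 at 20 h.

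Per1 and Ciart are shown with the 250 bases before a start that RefSeq places on GRCm38.p6. Both are clock genes described above whose windows hold the E-box CACGTG. A gene with more than 1 window is represented by the window with the most matches. Per1 had 2 windows, and the one shown lies within the annotated span of the gene. The capitals mark the E-box, which reads the same on both strands.
Per1, chr11:69098699-69098948, plus strand: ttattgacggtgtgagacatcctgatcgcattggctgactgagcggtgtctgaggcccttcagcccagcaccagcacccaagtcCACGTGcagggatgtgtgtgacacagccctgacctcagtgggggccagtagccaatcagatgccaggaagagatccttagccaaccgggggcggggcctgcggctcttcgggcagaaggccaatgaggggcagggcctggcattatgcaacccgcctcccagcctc
Ciart, chr3:95882229-95882478, minus strand: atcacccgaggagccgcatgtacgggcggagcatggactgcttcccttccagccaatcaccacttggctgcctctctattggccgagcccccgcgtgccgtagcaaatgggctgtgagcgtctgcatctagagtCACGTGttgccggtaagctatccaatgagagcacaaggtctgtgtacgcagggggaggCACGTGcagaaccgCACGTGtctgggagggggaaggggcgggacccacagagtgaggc
The first match lies 166 bases before that start in Per1 and 116 in Ciart, which holds 3. Of the 26 genes of the clock lists and Cirbp, 21 had a window in the table used and 5 of these held CACGTG, namely Per1, Cry1, Tef, Bhlhe41 and Ciart. Over all 32851 windows of that length 6.02% held it, and 6.86% of 27025 genes held it in at least 1 window. These 5 genes did not move together: Per1 and Tef were lower in LD, Cry1 was higher, and Bhlhe41 (0.06, adjusted p = 0.69; −0.30 with each library scaled to the same sum) and Ciart (−0.15, adjusted p = 0.342) did not pass. A match is a description of letters and no sign that a factor was bound.

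Of 13 tested SCN peptides and receptors 6 were called higher in LD and none lower, with a median of 0.57 against 0.02 over all genes. With the length trend removed 4 were higher and 1 lower, with each library scaled to the same sum 2 and 1, and with quantile normalization 5 and 2. Nms, which codes for neuromedin S, lay at 1.02, 2.61 and 3.93 in LD and at 0.0742, 0.726 and 1.83 in DD, with overlap, and differed by 1.33 ± 0.32 (adjusted p = 0.00131). Prok2, an output signal of the SCN, lay at 0.569 to 1.66 in LD and at 0.0800 to 1.24 in DD (0.57 ± 0.18, adjusted p = 0.00845), and lost its call with the length trend removed (0.20, adjusted p = 0.327). Penk, which codes for the enkephalins, lay at 98.0, 114 and 124 in LD and at 18.9, 49.8 and 62.5 in DD, the only one of the list with no overlap, and differed by 1.25 ± 0.15 (adjusted p = 1.66e-06). Avpr1a, the vasopressin receptor through which SCN neurons couple, differed by 0.64 ± 0.18 (adjusted p = 0.00457), Grp by 0.50 ± 0.17 (adjusted p = 0.0152) and Sst by 0.30 ± 0.12 (adjusted p = 0.035), of which Sst took the opposite sign with the length trend removed (−0.24, adjusted p = 0.107).

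The defining SCN peptides did not pass. Vip lay at 3.79, 21.2 and 32.9 in LD and at 0.506, 15.9 and 19.9 in DD, and Avp at 210, 401 and 631 in LD and at 20.4, 365 and 492 in DD. Both vary many times over within a side. Vip differed by 1.06 ± 0.66 (adjusted p = 0.166) and Avp by 0.66 ± 0.49 (adjusted p = 0.244), and Avp by 0.20 without Ctrl DD 12 h replicate 1. Of 7 SCN identity genes 1 was called higher and 2 lower, and 1 and 1 with the length trend removed. Six6, a transcription factor needed for the SCN to form, lay at 0.222 to 2.35 in LD and at 0.0614 to 4.63 in DD (−0.84 ± 0.36, adjusted p = 0.0452; −1.16 without that library). Syt10, a synaptotagmin enriched in the SCN, was lower in LD (−1.10 ± 0.29, adjusted p = 0.00262), and Lhx1 differed by −0.04 ± 0.25 (adjusted p = 0.906). All 18 libraries held Avp, and Vip, Six6 and Lhx1 were above 0 in each. In tissue samples, fewer cells of a type and less RNA per cell cannot be told apart.

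Single genes of the tissue around the SCN differed in both directions. Of 14 peptides of neighbouring hypothalamic nuclei 5 were called higher and 4 lower in LD. These counts are close to the shares over all genes tested, 35.0% higher and 31.9% lower. The median was −0.42 against 0.02 over all genes. The counts were 5 and 7 without Ctrl DD 12 h replicate 1 and also with the length trend removed. No overlap was seen for 6 of the 14, against 31.2% of all genes. Pomc, Agrp and Npy, all lower in LD, mark the arcuate nucleus, which lies behind the SCN. Pomc, the precursor of melanocortin, lay at 2.98, 7.97 and 14.9 in LD and at 2.38, 156 and 224 in DD, where the single low value is that of the library that stands apart. It differed by −3.70 ± 0.61 (adjusted p = 4.17e-05) and by −4.30 without that library. Agrp, which blocks the melanocortin receptors, lay at 0.360, 0.514 and 0.849 in LD and at 0.442, 21.1 and 33.6 in DD (−3.89 ± 0.49, adjusted p = 1.96e-06). Npy, a peptide of the same feeding neurons, lay at 9.43, 13.3 and 29.2 in LD and at 64.8, 103 and 151 in DD without overlap (−2.86 ± 0.20, adjusted p = 1.92e-09). Pmch, a peptide of the lateral hypothalamus, differed by −3.60 ± 0.86 (adjusted p = 0.00131), with 3.18 to 195 in LD and 8.34 to 646 in DD.

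The 5 peptides higher in LD included those of paraventricular and preoptic neurons. Oxt, oxytocin of the paraventricular and supraoptic nuclei, lay at 1139, 1649 and 2023 in LD and at 23.1, 370 and 631 in DD without overlap, and differed by 2.40 ± 0.45 (adjusted p = 0.000168), or by 1.95 without Ctrl DD 12 h replicate 1. Gnrh1, of the preoptic neurons that drive reproduction, lay at 29.8, 33.4 and 57.2 in LD and at 2.62, 7.49 and 16.2 in DD (2.38 ± 0.24, adjusted p = 1.41e-07). Crh, the corticotropin-releasing hormone, lay at 6.04 to 11.4 in LD and at 0.256 to 1.999 in DD (2.68 ± 0.20, adjusted p = 4.97e-09). Crh, Trh, Tac2 and Pmch were named after their values were seen. Trh (1.80 ± 0.40, adjusted p = 0.000758) and Tac2 (1.30 ± 0.24, adjusted p = 0.000156) were higher in LD too, without overlap. None of these 5 lost its call with the length trend removed, nor did Pomc, Agrp, Npy or Pmch.

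Among genes whose mean reached 5 FPKM and whose sides did not overlap, the 10 with the largest difference upward held several of the same regional kind. Lhx8, a transcription factor of basal forebrain cholinergic neurons, lay at 3.40, 12.1 and 15.5 in LD and at 0.0141, 0.0867 and 0.288 in DD (4.12 ± 0.19, adjusted p = 3.19e-11). Lhx6, a transcription factor of interneurons from the ganglionic eminence, lay at 6.49 to 21.4 and 0.164 to 6.30 (3.62 ± 0.35, adjusted p = 8.89e-08). Nts (neurotensin, 2.84), Ngfr (the low-affinity neurotrophin receptor, 2.34), Asic4 (a member of the acid-sensing channel family, 2.07), Zic1 (2.02) and Zic2 (1.97), both zinc-finger factors of the medial forebrain, were the others beside Oxt and Gnrh1. Rn45s, at 279 to 864 in LD and 58.4 to 184 in DD (1.88 ± 0.23, adjusted p = 1.56e-06), is the ribosomal RNA precursor, a multi-copy gene whose level in a poly(A) library is uncertain.

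Marker genes of cell types and regions moved with the same sides. Summed over 3 markers of GABA neurons, the level was 265 to 374 in LD and 121 to 210 in DD, with 3 of 3 called higher. Slc32a1, the vesicular GABA transporter, lay at 69.1, 92.9 and 104 in LD and at 19.3, 29.1 and 39.3 in DD (1.67 ± 0.11, adjusted p = 1.38e-09), and Gad1, which makes GABA, at 115 to 178 and 62.8 to 102 (0.80 ± 0.08, adjusted p = 1.55e-07). The thalamus sum (3 markers, among them Zic1) was 18.2 to 37.97 in LD and 7.17 to 14.2 in DD. Of the 3, 2 were called higher and none lower, and 2 and 1 without Ctrl DD 12 h replicate 1. The lowest difference among them was −0.52. The sum of 2 tanycyte markers was 1.03 to 1.69 in LD and 2.08 to 23.2 in DD, and Rax, a factor of tanycytes at the floor of the third ventricle, lay at 0.0178 to 0.127 in LD with a DD median of 3.03. Mural cell markers (4 of 4 lower in LD) summed to 5.25 to 7.92 and 9.41 to 60.7, and oligodendrocyte precursor markers to 13.0 to 17.6 and 17.9 to 22.1, where of 4 markers 1 was called higher and 2 lower (1 and 1 with the length trend removed, median 0.04). These 5 sums did not overlap, and those of neurons (839 to 1009 in LD) and cortex joined them only without Ctrl DD 12 h replicate 1. The sums of glutamate neurons, astrocytes, oligodendrocytes, microglia, endothelium, meninges, ependyma, choroid plexus, pituitary, blood and striatum overlapped. An overlap is not an equal level. Meninges markers summed to 9.26 to 16.2 in LD and 12.3 to 155 in DD, with 4 of 5 called lower and 0 higher. Ependyma markers summed to 18.3 to 78.0 and 8.09 to 43.9, with 3 of 3 called higher. Of all listed markers, Gh, Prl, Cga and Tshb of the pituitary were at 0 in some library. The part that these tissue markers have in the differences of other genes was not tested.

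**Figure D3:**
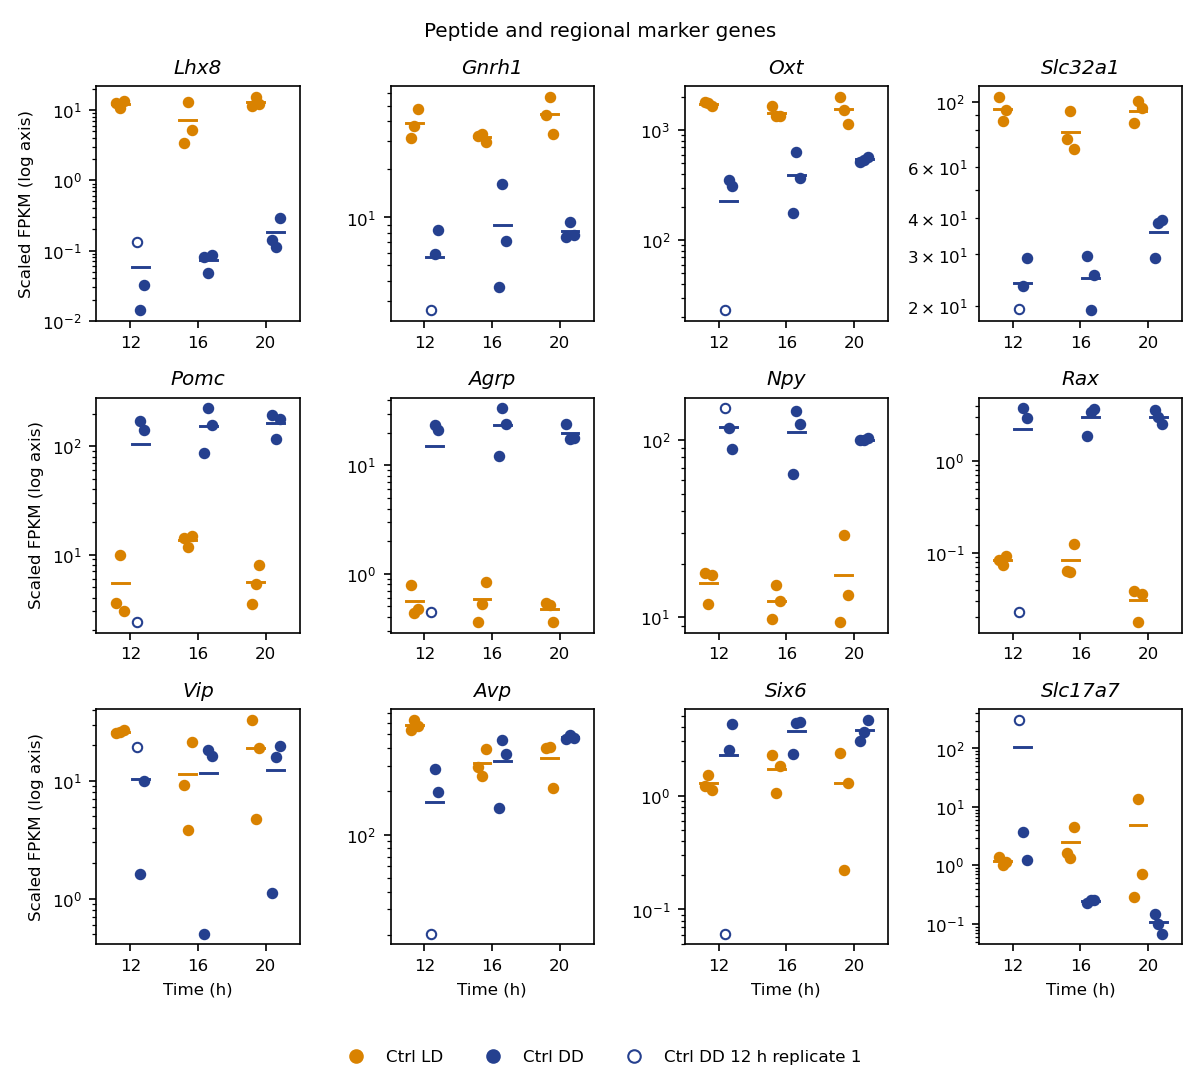
Scaled FPKM on a log axis (vertical) of 12 peptide and regional marker genes at 12, 16 and 20 h (horizontal axis), 3 libraries a time in Ctrl LD and Ctrl DD, with horizontal lines at the means and an open circle for Ctrl DD 12 h replicate 1. Lhx8, Gnrh1, Oxt and Slc32a1 lie higher in LD and Npy higher in DD in every library, Pomc, Agrp and Rax lie higher in 8 of 9 DD libraries, and Vip, Avp and Six6 overlap.

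The endoplasmic reticulum (ER) chaperones, which fold secreted proteins and rise when folding is strained, were higher in LD as a group. Of 11, 10 were called higher and none lower, with a median of 0.53 against 0.02 over all genes, and 10 were called higher with the length trend removed, with a median of 0.33. The median stayed above 0 under all 5 other scalings, with 5 called higher when each library was scaled to the same sum. This list holds the 1 gene whose LD minus DD difference passed the test of dependence on time in the main fit. Without Ctrl DD 12 h replicate 1 no gene passed it. Calr, the calcium-binding chaperone calreticulin, stood at 180, 192 and 191 in LD at 12 h, at 239, 236 and 256 at 16 h, and at 296, 316 and 281 at 20 h. In DD it stood at 190, 164 and 181 at 12 h, at 164, 158 and 151 at 16 h, and at 162, 154 and 161 at 20 h. The sides overlapped at 12 h and were far apart at 20 h. The difference was 0.07 (adjusted p = 0.42) at 12 h, 0.63 (adjusted p = 1.4e-05) at 16 h and 0.90 (adjusted p = 9.7e-07) at 20 h, with an adjusted interaction p of 0.044. Over all 3 times Calr differed by 0.53 ± 0.09 (adjusted p = 6.91e-05), and by −0.0085 (adjusted p = 0.939) after quantile normalization, which also turned Hspa5 to −0.052.

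Sdf2l1, a component of the ER chaperone complex, had the largest difference of this list. It lay at 11.3, 19.4 and 26.2 in LD and at 6.83, 7.70 and 8.45 in DD, without overlap, and the DD libraries stayed within a narrow range at all times. It differed by 0.56, 1.41 and 1.51 at 12, 16 and 20 h (1.16 ± 0.12 over all, limma, adjusted p = 2.34e-07 and for the interaction 0.178). Creld2, an ER stress-inducible protein, lay at 12.9 to 20.9 in LD and at 8.02 to 12.6 in DD (0.68 ± 0.10, adjusted p = 1.49e-05). Hspa5, which codes for BiP and was picked out after its values were seen, lay at 148 to 276 and 97.3 to 169 (0.45 ± 0.11, adjusted p = 0.0011). Next in order of the interaction test came Rnpep, an aminopeptidase, and Eva1a, an autophagy regulator. Rnpep differed by −0.25, 0.52 and 0.46 at 12, 16 and 20 h, and Eva1a by 1.25, −0.09 and 0.39. Their adjusted p for the interaction (limma, Benjamini-Hochberg) were 0.0604 and 0.149.

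**Figure D4:**
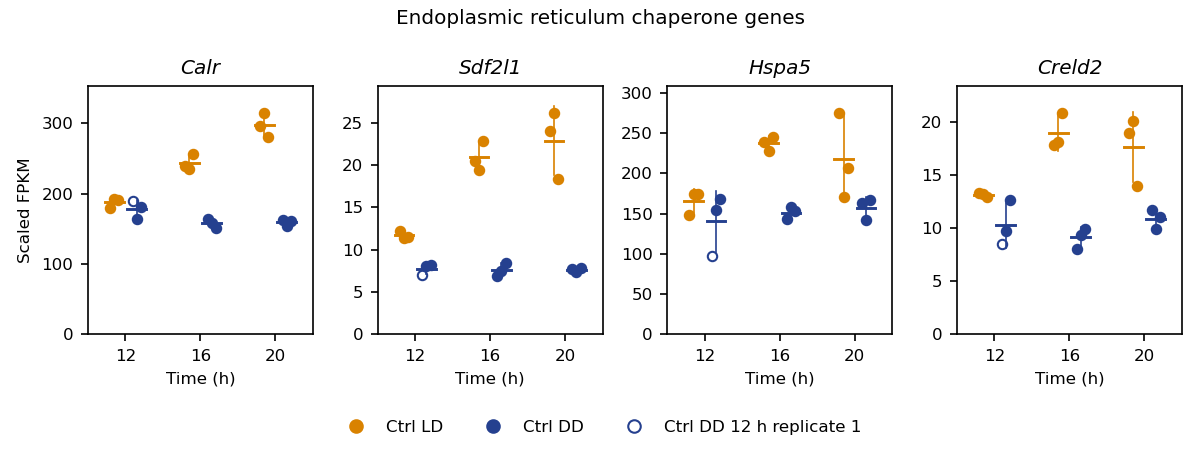
Scaled FPKM (vertical axis, from 0) of Calr, Sdf2l1, Hspa5 and Creld2 at 12, 16 and 20 h (horizontal axis), 3 libraries a time in Ctrl LD and Ctrl DD, with the mean as a horizontal line and the SD as a vertical line. Calr starts at 180 to 192 in LD at 12 h, within reach of DD at 164 to 190, and reaches 281 to 316 in LD at 20 h, and Sdf2l1 stays between 6.83 and 8.45 in DD.

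Calr, Hspa5 and Creld2 are shown with the 250 bases before their start (RefSeq, GRCm38.p6). Each holds the ER stress response element, which the fit did not use and which part of the list lacks. The capitals mark both ends of the element, CCAAT and CCACG with 9 bases between them on either strand, so that the reverse reads CGTGG and then ATTGG.
Calr, chr8:84846932-84847181, minus strand: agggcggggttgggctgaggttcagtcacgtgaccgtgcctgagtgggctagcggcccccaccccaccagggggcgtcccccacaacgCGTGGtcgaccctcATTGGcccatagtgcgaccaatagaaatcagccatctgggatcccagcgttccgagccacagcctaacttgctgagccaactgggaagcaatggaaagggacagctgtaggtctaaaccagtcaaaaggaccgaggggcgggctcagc
Hspa5, chr2:34771840-34772089, plus strand: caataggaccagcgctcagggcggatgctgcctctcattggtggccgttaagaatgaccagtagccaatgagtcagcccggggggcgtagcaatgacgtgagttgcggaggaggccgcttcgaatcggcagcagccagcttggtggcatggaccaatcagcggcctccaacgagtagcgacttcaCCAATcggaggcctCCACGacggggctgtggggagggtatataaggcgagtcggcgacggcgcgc
Creld2, chr15:88819396-88819645, plus strand: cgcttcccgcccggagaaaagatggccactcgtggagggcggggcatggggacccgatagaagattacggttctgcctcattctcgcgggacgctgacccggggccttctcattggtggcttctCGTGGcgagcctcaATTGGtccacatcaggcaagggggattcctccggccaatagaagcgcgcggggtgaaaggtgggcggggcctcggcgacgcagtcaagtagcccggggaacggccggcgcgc
The match begins 162 bases before the start in Calr, 65 in Hspa5 and 126 in Creld2. Of the 9 ER chaperones with a window, 5 held the element, among them also Pdia6 and Hsp90b1. Pdia4, Dnajb11, Xbp1 and Sdf2l1, the last with the largest difference of the list, held none. Over all 32851 windows 0.113% (37) held the element. The list was written from genes known to respond to ER strain. The presence of the element in some therefore follows from the choice of members and says nothing about binding in these libraries.

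Heat shock proteins, the cytosolic and mitochondrial chaperones, had 10 of 13 genes called higher in LD and none lower, with a median of 0.49, and the same counts with the length trend removed. Hspe1, the mitochondrial co-chaperone, lay at 158 to 214 in LD and at 77.9 to 115 in DD without overlap (0.86 ± 0.07, adjusted p = 2.65e-08). Dnajb1, a partner of HSP70, lay at 22.8 to 38.5 and 14.1 to 27.7 (0.74 ± 0.13, adjusted p = 7.03e-05). With quantile normalization 6 of the list were higher and 3 lower, with a median of 0.04, and with each library scaled to the same sum 3 were higher and 1 lower. Of 18 targets of ATF4, the factor of amino acid shortage, 12 were higher and 2 lower (8 and 1 with the length trend removed). With each library scaled to the same sum 4 were higher and 5 lower, with a median of 0.01. Cth, of cysteine synthesis, was higher by 0.64 ± 0.08 (adjusted p = 1.12e-06), and Slc7a11, the cystine transporter, was lower (−1.01 ± 0.11, adjusted p = 2.85e-07).

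Genes of the ribosome, which makes proteins, and of the respiratory chain, which makes ATP in mitochondria, were higher in LD. Of 83 tested cytosolic ribosomal protein genes 82 were called higher in LD and none lower, with a median of 0.72, and 73 had no overlap. Of 82 genes of the nuclear-encoded respiratory chain 79 were higher and none lower, with a median of 0.89, and 73 had no overlap. With the length trend removed, 72 ribosomal protein genes were higher and none lower (median 0.30), and 71 and 2 of the respiratory chain (0.42). The ribosomal protein genes made up 12.2% of total FPKM in LD and 9.42% in DD, and their rise was 19.5% of the difference in totals. The respiratory chain accounted for another 10.8%. Rpl34 lay at 96.6, 141 and 180 in LD and at 57.0, 65.4 and 73.3 in DD (1.07 ± 0.09, adjusted p = 1.17e-08). Ndufb8, a subunit of complex I, lay at 348, 396 and 458 in LD and at 148, 176 and 194 in DD (1.20 ± 0.05, adjusted p = 1.59e-11), and Uqcrq, of complex III, at 316 to 594 and 141 to 248 (1.20 ± 0.11, adjusted p = 4.25e-08). Many ribosomal protein genes have processed pseudogenes, with which reads may be shared. Under quantile normalization 35 ribosomal protein genes were higher and 5 lower, with a median of 0.13. Of single genes, Oxt had the largest part, 0.984% of the difference (1664 against 386 FPKM as deposited), followed by Rps29, Cst3, Fth1, Apoe, Ppia, Rps21, Rpl41, Rps27rt and Rps15.

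Of 31 tested replication-dependent histone genes 24 were higher in LD and none lower (median 0.51), and 5 and 2 with the length trend removed (median 0.06). Hist1h4h lay at 9.16 to 16.3 in LD and at 2.31 to 5.17 in DD (1.57 ± 0.14, adjusted p = 5.69e-08). Histone messages carry no poly(A) tail in the main and come from near-identical copies, so their level in these libraries is uncertain. Of 49 small nuclear and nucleolar RNAs, which this library type does not capture well, none were higher and 4 lower (none and 8 with the length trend removed), Snora70 and Snora81 with the largest differences.

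**Figure D5:**
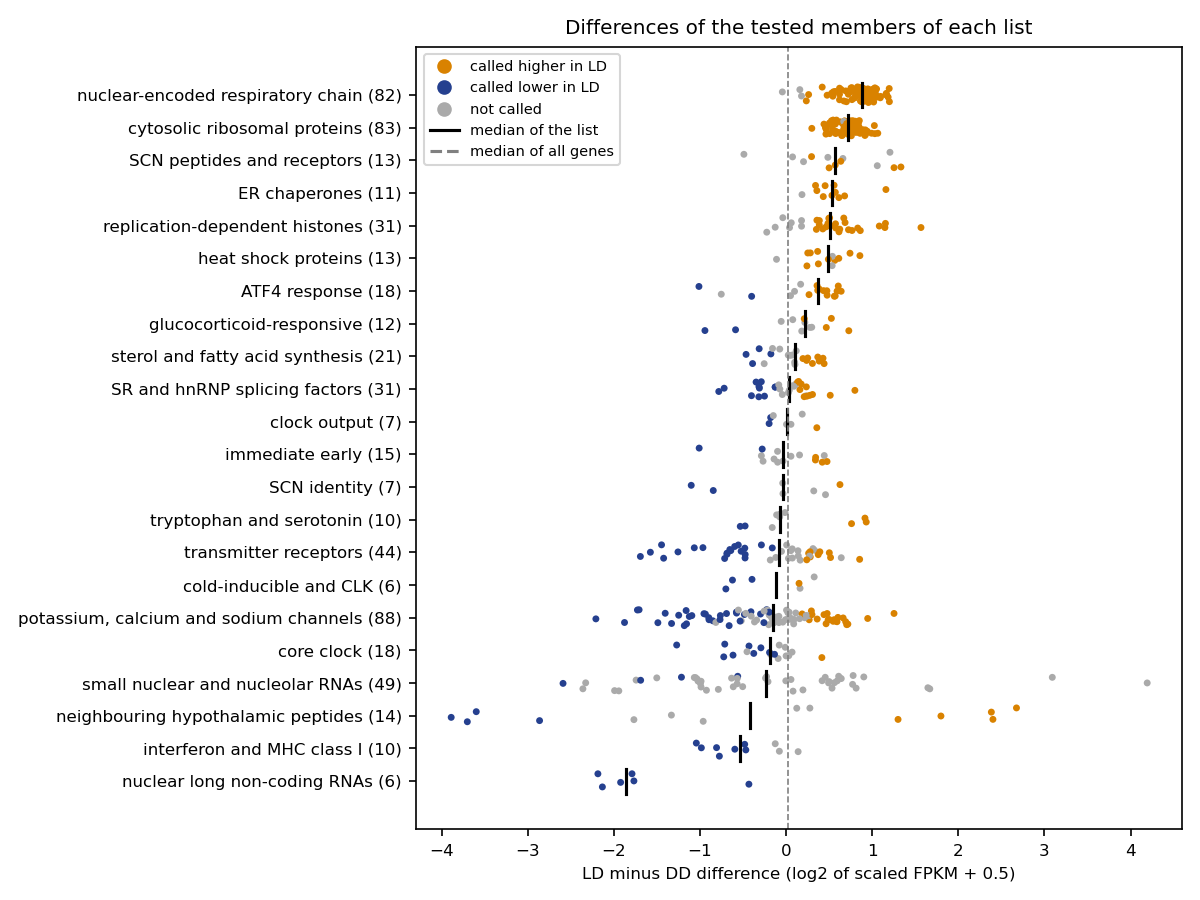
LD minus DD difference (log2 of scaled FPKM + 0.5, horizontal axis) of each tested member of 22 gene lists (vertical axis, number tested in brackets). Points are genes, coloured by call, black ticks are list medians and the dashed line is the median of all genes, 0.02. Respiratory chain (median 0.89) and ribosomal protein genes (0.72) lie to the right and nuclear long non-coding RNAs (−1.85) to the left.

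Nuclear long non-coding RNAs were lower in LD, 6 of 6, with a median of −1.85, and 5 of 6 with the length trend removed (median −1.31). Meg3, a maternally expressed imprinted RNA, lay at 138, 160 and 407 in LD and at 653, 775 and 1022 in DD (−2.13 ± 0.16, adjusted p = 4.25e-09). Miat, a nuclear RNA of neurons, lay at 15.0, 16.7 and 39.0 and at 71.5, 84.1 and 114 (−2.18 ± 0.15, adjusted p = 1.82e-09). The highest LD value of both came from Ctrl LD 20 h replicate 2. With the length trend removed they differed by −1.23 and −1.63 and stayed called. Neither Ipw nor Cdr1, both among the 10 largest falls, was a member of this list. Ipw (−2.46) is a non-coding RNA of the Snrpn region. The locus of Cdr1 (−2.47) gives a circular RNA that gene-level FPKM cannot separate.

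The largest difference of all genes was that of Tgoln2, a trans-Golgi protein, with 7.06 to 24.8 in DD and at most 0.601 in LD (−5.02 ± 0.19, adjusted p = 4.47e-12). It may share reads with its near copy Tgoln1, so its value is uncertain. Zbed6 (−2.57), which lies within an intron of Zc3h11a and may share its reads, and Rreb1 (−2.60), a zinc-finger repressor, followed. So did Leng8 (−2.20), Dcn (−2.24), the matrix proteoglycan decorin of the meninges list, and Col23a1 (−2.75), a collagen of the tanycyte list. Cacna1e, the R-type calcium channel, lay at 2.60, 3.88 and 4.94 in LD and at 17.2, 20.2 and 22.8 in DD (−2.21 ± 0.09, adjusted p = 9.24e-12), and its transcript of 14921 bases is among the longest. With the length trend removed it differed by −1.29.

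Among 88 tested potassium, calcium and sodium channels 22 were called higher and 31 lower in LD (median −0.15), and among 44 transmitter receptors 9 and 20 (median −0.09). These counts stand beside 35.0% higher and 31.9% lower over all genes tested. In the length-corrected fit 27 channels were higher and 23 lower (median 0.02), and 15 receptors were higher and 13 lower (median 0.04). Scn7a, a sodium channel of glia in the circumventricular organs, lay at 0.659 to 1.20 in LD and had a DD median of 5.65 (−1.88 ± 0.27, adjusted p = 1.05e-05). Glra1, a glycine receptor, differed by −1.69 ± 0.33 (adjusted p = 0.000215) and Grin2a, an NMDA receptor subunit with a transcript of 14634 bases, by −1.58 ± 0.20 (adjusted p = 2.16e-06).

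Of 24 tryptophan and serotonin genes, 10 passed the filter on low values. Of these 3 were called higher and 2 lower, beside 35.0% and 31.9% of all genes tested. The median was −0.07, and 0.02 with FPKM as deposited. The counts were the same with the length trend removed and 3 and 5 without Ctrl DD 12 h replicate 1. With each library scaled to the same sum they were 3 and 6 (median −0.44). The 3 called higher in the main fit were serotonin receptors, of which Htr7 was added after its values were seen. The 2 called lower are not named here, and the lowest difference of the list was −0.53. Htr1a lay at 4.03, 6.61 and 8.09 in LD and at 2.69, 3.06 and 3.86 in DD without overlap (0.93 ± 0.10, adjusted p = 4.81e-07). Htr2c lay at 13.7, 18.7 and 21.5 and at 3.01, 9.99 and 16.3 (0.92 ± 0.21, adjusted p = 0.000972), and Htr7, the receptor through which serotonin acts on the SCN, differed by 0.76 ± 0.12 (adjusted p = 3.56e-05).

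Of 31 SR and hnRNP splicing factor genes 11 were higher and 11 lower, near the shares over all genes tested, 35.0% higher and 31.9% lower. The median was 0.04, and −0.08, −0.32 and −0.17 under upper quartile, same-sum and quantile scaling. Removal of the length trend gave 8 higher and 9 lower. Hnrnpa0 was higher (0.80 ± 0.07, adjusted p = 4.07e-08) and Srsf11 lower (−0.78 ± 0.10, adjusted p = 2.21e-06). Of 6 cold-inducible and CLK genes 1 was higher and 3 lower, also with the length trend removed, and Clk1, a kinase of SR proteins, lay at 23.4 to 38.6 in LD and at 41.2 to 57.8 in DD (−0.70 ± 0.09, adjusted p = 2.19e-06), with Clk4 at −0.62.

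Of 10 interferon and MHC class I genes none were higher and 7 were lower in LD, with a median of −0.54, and 9 were lower with the length trend removed (median −0.68). Ifit1, an interferon-induced RNA-binding protein, lay at 0.634, 0.714 and 0.990 in LD and at 0.910, 1.90 and 7.65 in DD, and differed by −1.04 ± 0.22 (adjusted p = 0.000494). Usp18, which restrains interferon signalling, differed by −0.98 ± 0.18 (adjusted p = 0.000106). The highest DD value of both came from Ctrl DD 12 h replicate 1, and without it they differed by −0.85 and −0.83.

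Genes that respond quickly to stimulation showed no common direction. Beside the list counts that follow, 35.0% of all genes tested were called higher and 31.9% lower in LD. Of 15 immediate early genes 4 were higher (Jun, Dusp1, Ier2 and Sik1, by 0.34 to 0.48) and 2 lower, with a median of −0.03 (0.04 with FPKM as deposited and 0.18 with quantile normalization). In the fit without the length trend 2 were higher and 3 lower. Npas4, the activity-regulated factor of neurons, lay at 0.919, 1.09 and 2.74 in LD and at 2.34, 2.81 and 6.38 in DD (−1.01 ± 0.17, adjusted p = 5.36e-05), and the highest value on each side came from a library with high cortical markers, LD 20 h replicate 2 and DD 12 h replicate 1. Of 12 glucocorticoid-responsive genes 4 were higher and 2 lower (median 0.22, and −0.14 with each library scaled to the same sum), and 1 and 3 with the length trend removed (median 0.01). Tsc22d3 was higher (0.73 ± 0.13, adjusted p = 6.45e-05) and Zbtb16 lower (−0.94 ± 0.25, adjusted p = 0.00281). Of 21 genes of sterol and fatty acid synthesis 8 were higher and 4 lower (median 0.10, but −0.27, −0.02 and −0.14 with same-sum, upper quartile and quantile scaling), and 11 and 2 with the length trend removed. The largest differences were those of Fdps (0.44 ± 0.06, adjusted p = 5.86e-06), of the isoprenoid route, and Lss (−0.46 ± 0.06, adjusted p = 1.72e-06), which closes the sterol ring.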

How the data were processed

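RNA was extracted from the SCN with TRIzol and sequenced from stranded poly(A) libraries (TruSeq stranded mRNA). Per the labels the authors used Trimmomatic, TopHat and Cufflinks on mm10, with versions not given in the sources used here, and deposited gene-level FPKM, which is already divided by transcript length and library total. The members and the 23 process and 18 marker gene lists were chosen with earlier results of these data known, and the 1 list of mitochondrially encoded genes had no member in the tables.

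Columns were placed on samples by equal values with a supplementary table of the study, not by their deposited names. FPKM were divided by median-of-ratios factors over all 72 libraries, a pseudocount of 0.5 was added, and genes averaging 0.5 FPKM or more were tested in limma (3.58.1, R 4.3.3) with light and time as factors, a variance trend and Benjamini-Hochberg adjustment over all 14455 genes. A fit with light by time gave the values at each time and the interaction. Totals, depths and factors were compared with two-sided exact permutation tests (scipy 1.17.1, Python 3.11.15). The scripts were tested on simulated data. Longest transcript lengths came from GENCODE M21, which held 23310 of 24346 symbols. Promoter windows came from RefSeq.

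The text names the 10 largest differences in each direction among called genes averaging 5 FPKM or more whose sides did not overlap, called members of the clock, SCN peptide and immediate early lists, the 2 called members of each other list with the largest difference, the 5 smallest interaction p, the 10 genes with the largest part in the total, and defining and moving markers. Hspa5, Ciart, Cirbp, Nr1d1, Htr7, Bhlhe41, Pmch, Crh, Trh and Tac2 were added after their values were seen, and 1 gene the rule names is not reported here. Alternatives were other scalings, pseudocounts, filters and variance settings, a replicate block, 1 fit of all 36 Ctrl libraries, the columns as named and each library left out. Removal of the length trend was added after seeing the data.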

Additional observations from a re-analysis of the deposited data

Results flagged for a closer look

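Among 270 sets of 9 values of 1 side examined, Dixon's ratio passed its critical value in 70, where chance passes about 1 set in 20, and 33 of the 70 were Ctrl DD 12 h replicate 1. Values below are scaled FPKM of the library that lay apart from the other 8 of its side.

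Ctrl DD 12 h replicate 1 had the highest value of its side for Lhx6 6.30, Arntl 12.9, Npas4 6.38, Dusp1 8.15, Ier2 3.23, Uqcrq 248, Grin2a 8.16, Ifit1 7.65, Usp18 3.91, Fth1 1981, Slc17a7 307, Tbr1 21.2, Neurod6 56.5 and Rgs5 12.9, and the lowest value of its side for Tgoln2 7.06, Col23a1 2.06, Avpr1a 0.147, Syt10 1.45, Six6 0.0614, Glra1 0.166, Hspa5 97.3, Tac2 8.14 and Bhlhe41 3.55. Ctrl LD 20 h replicate 2 had the highest value of its side for Npy 29.2, Leng8 35.9, Npas4 2.74, Clk4 25.3, Srsf11 32.3, Uqcrq 594, Miat 39.0, Meg3 407, Snora70 16.6, Fth1 2388, Rpl41 2863, Rps15 2311, Slc17a7 13.7, Tbr1 4.87, Neurod6 0.937 and Tac2 128, and the lowest value of its side for Zic1 11.2, Cry1 6.19 and Sik1 3.58. Ctrl DD 20 h replicate 3 had the highest value of its side for Lhx8 0.288, Dnajb1 27.7 and Clk1 57.8. Ctrl LD 20 h replicate 3 had the highest value of its side for Tgoln2 0.601 and Rgs5 4.17. Ctrl LD 16 h replicate 1 had the highest value of its side for Gh 455 and Cga 19.0. Ctrl DD 16 h replicate 2 had the highest value of its side for Gnrh1 16.2. Ctrl LD 12 h replicate 2 had the highest value of its side for Rn45s 864. Ctrl LD 16 h replicate 3 had the highest value of its side for Timeless 0.734. Ctrl LD 16 h replicate 2 had the lowest value of its side for Grp 3.15. Ctrl DD 12 h replicate 3 had the highest value of its side for Prok2 1.24. Ctrl DD 12 h replicate 2 had the highest value of its side for Gh 42.4. 

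For summed cell type and region markers, Ctrl DD 12 h replicate 1 had the highest sum of its side for neurons 1569.9, glutamate neurons 312, oligodendrocytes 3738, microglia 122, endothelium 82.0, mural cells 60.7, choroid plexus 106, cortex 85.0 and striatum 30.6, and the lowest sum of its side for tanycytes 2.08. Ctrl LD 20 h replicate 2 had the highest sum of its side for endothelium 80.7 and cortex 6.28, and the lowest sum of its side for ependyma 18.3. Ctrl LD 16 h replicate 1 had the highest sum of its side for pituitary 574. Ctrl DD 12 h replicate 2 had the highest sum of its side for pituitary 94.9. 

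The LD minus DD difference of Calr passed the test of the interaction in the main fit (limma, adjusted p = 0.044). It rose from 0.07 at 12 h to 0.90 at 20 h on the log2 scale. Without Ctrl DD 12 h replicate 1, without a variance trend or with a replicate block, no gene passed this test. No explanation of these values was tested.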

How the results depend on the processing

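Which columns are taken as LD and DD decided the results. With the columns taken by their deposited names, 1 gene was called and 1 with a difference of at least 0.5 (log2), against 9678 and 4481, 9720 genes showed a dependence on time, and the ratio of total FPKM was 0.876 (two-sided permutation test, p = 0.0969). With a term for the range of total FPKM added, 96 and 11 genes were called. Both results are of the mixture of the placed sides that the names give, and which order is right was not tested.

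The counts of calls over all genes stayed within 1.5 times under each other scaling, pseudocount, filter and fit tried, except that 2894 genes were called with a difference of at least 0.5 with the length trend removed, an alternative chosen after seeing the data. The gene that depended on time rests on the fit, since the count was 2 with FPKM as deposited, with each library scaled to the same sum, with upper quartile scaling and with quantile normalization, 3 without a filter and with the length trend removed (with and without Ctrl DD 12 h replicate 1), 0 without a variance trend and 16 in 1 fit of all 36 Ctrl libraries. Leaving out each of the 18 libraries in turn gave 9371 to 10610 called genes, 4384 to 4580 with at least 0.5, 6013 to 7974 at 12 h, 5337 to 8205 at 16 h, 5477 to 8078 at 20 h, 0 to 9 genes that depended on time, and a ratio of total FPKM of 1.380 to 1.399.

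The replicate numbers did not pair the samples: deviations of same-numbered LD and DD libraries from their group means correlated at −0.27 to 0.17. With a replicate block 9553 genes were called over all times, 6896, 6280 and 6219 at 12, 16 and 20 h, and 0 for the dependence on time.

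Of the genes named, these changed sign. With FPKM as deposited the LD minus DD difference (log2) was Lhx1 0.023. Scaling to the same sum gave Bhlhe41 −0.30, Cirbp −0.21, Dbp −0.18, Jun −0.019, Nr1d1 −0.37, Rnpep −0.12 and Sst −0.082. Upper quartile scaling gave Bhlhe41 −0.053 and Nr1d1 −0.12. Quantile normalization gave Calr −0.0085, Cirbp −0.26, Hspa5 −0.052, Lhx1 0.15, Nr1d1 −0.17, Sst −0.28 and Stmn2 −0.036. With the length trend removed it was Cirbp −0.24, Dbp −0.10, Nr1d1 −0.13, Rora 0.31 and Sst −0.24, and also without Ctrl DD 12 h replicate 1 Avp −0.38, Cirbp −0.33, Dbp −0.20, Nr1d1 −0.11, Rora 0.32 and Sst −0.23. Leaving out single libraries took Bhlhe41 from −0.056 to 0.092, Lhx1 from −0.19 to 0.13, Nr1d1 from −0.023 to 0.033 and Slc17a7 from −0.20 to 1.17 (adjusted p = 0.0476 at the last value, without Ctrl DD 12 h replicate 1). Of these, the ones past the threshold with the new sign were Rora with the length trend removed (both fits), Sst and Nr1d1 under quantile normalization, Nr1d1 and Bhlhe41 with each library scaled to the same sum, and Cirbp with the length trend removed and Ctrl DD 12 h replicate 1 left out. The cause was not tested. Single libraries decided the calls of Arntl, Ier2, Six6, Rnpep, Sst, Dusp1, Nr1d2, Snora70 and Snora81, each lost without at least 1 library.

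With the columns as named, the difference took the opposite sign for Agrp 0.65, Apoe −0.24, Arntl 0.12, Asic4 −0.37, Avp −0.93, Avpr1a −0.14, Bhlhe40 0.15, Cacna1e 0.98, Calr −0.047, Cdr1 0.92, Ciart 0.021, Cirbp −0.10, Clock 0.25, Col23a1 0.39, Creld2 −0.15, Crh −1.01, Cst3 −0.31, Cth −0.12, Dbp −0.10, Dnajb1 −0.17, Dusp1 −0.11, Eva1a −0.27, Fdps −0.16, Fth1 −0.24, Gad1 −0.087, Gh −0.19, Glra1 0.92, Gnrh1 −0.80, Grin2a 0.83, Grp −0.51, Hist1h4h −0.60, Hist2h2aa1 −0.58, Hnrnpa0 −0.25, Hspa5 −0.13, Hspe1 −0.37, Htr1a −0.19, Htr2c −0.032, Htr7 −0.17, Ier2 −0.24, Ipw 0.91, Jun −0.13, Leng8 0.50, Lhx1 0.24, Lhx6 −1.02, Lhx8 −1.04, Lss 0.19, Meg3 0.60, Miat 0.49, Ndufb8 −0.28, Nfil3 −0.15, Ngfr −0.73, Nms −0.40, Npas4 0.13, Npy 0.39, Nr1d2 0.057, Nts −0.86, Oxt −0.94, Penk −0.035, Per1 0.30, Per2 0.31, Per3 0.38, Pmch 0.71, Pomc 1.04, Ppia −0.27, Prok2 −0.095, Rax 0.39, Rgs5 0.11, Rn45s −0.39, Rnpep −0.083, Rora 0.25, Rpl26 −0.23, Rpl34 −0.36, Rpl41 −0.32, Rps15 −0.26, Rps21 −0.42, Rps27rt −0.34, Rps29 −0.25, Rreb1 0.77, Scn7a 0.20, Sdf2l1 −0.28, Six6 0.081, Slc32a1 −0.25, Slc7a11 0.37, Snora81 0.33, Srsf11 0.049, Sst −0.081, Stmn2 −0.22, Syt10 0.57, Tac2 −0.44, Tbr1 −0.56, Tef 0.18, Tgoln2 1.86, Trh −0.47, Tsc22d3 −0.34, Uqcrq −0.36, Vip −0.72, Zbed6 0.83, Zbtb16 0.22, Zic1 −0.25 and Zic2 −0.40. With the range of total FPKM as a term it did so for Apoe −0.063, Arntl 0.065, Avp −1.05, Avpr1a −0.10, Bhlhe40 0.13, Cacna1e 0.24, Cdr1 0.081, Cirbp −0.17, Crh −0.19, Cst3 −0.084, Dbp −0.020, Dnajb1 −0.019, Eva1a −0.21, Fdps −0.038, Glra1 0.17, Gnrh1 −0.62, Grin2a 0.35, Grp −0.46, Hist1h4h −0.33, Hist2h2aa1 −0.31, Hnrnpa0 −0.030, Hspe1 −0.11, Htr1a −0.032, Htr7 −0.0087, Ier2 −0.092, Jun −0.024, Nfil3 −0.021, Nms −0.43, Nts −0.19, Oxt −0.76, Per1 0.14, Per2 0.025, Ppia −0.088, Rora 0.017, Rpl26 −0.049, Rpl34 −0.12, Rpl41 −0.091, Rps15 −0.060, Rps21 −0.20, Rps27rt −0.16, Rps29 −0.052, Slc7a11 0.12, Stmn2 −0.063, Tac2 −0.018, Tef 0.17, Trh −0.43, Tsc22d3 −0.19, Uqcrq −0.048, Vip −0.85, Zic1 −0.19 and Zic2 −0.18.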
